A study of Mus musculus with 4 samples.

Results

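Long noncoding RNAs are transcripts without a protein product, and 10 of them, among them RNAs of nuclear bodies, of neural loci and of small nucleolar RNA host genes, were examined in neural stem cells with and without Mettl4. They were chosen by symbol: Malat1, Neat1, Miat, Sox2ot, Pantr1, Gas5, Snhg1, Snhg3, Snhg12 and Norad. All 10 were found among the 55414 genes of the count files, and all 10 passed the low-count filter that left 19912 genes. The RNA came from primary mouse neural stem cells, grown from embryonic day 14.5 cortex as floating spheres and then as an adherent layer in medium with EGF and basic FGF. There were 2 libraries from Mettl4 knockout cells and 2 from wild type cells. Mettl4 codes for an adenosine methyltransferase. The sources used here do not state the knockout allele, the strain, or whether the libraries of a group came from separate embryos or cultures, so p-values cover only the spread among these libraries, part of which may be technical. The series was set up to compare gene expression and alternative splicing between the genotypes. Gene counts bear on the first of these, and splicing was not analysed here.

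Malat1 and Neat1 are made from neighbouring genes and stay in the nucleus. Malat1 gathers in nuclear speckles, which store splicing factors, and the long form of Neat1 is the scaffold of paraspeckles. Malat1 and the long form of Neat1 are cut at the 3′ end by RNase P rather than polyadenylated there. A triple helix that includes an A-rich tract protects the cut end. Miat, also called Gomafu, is a nuclear RNA of neural cells whose repeats of the branch point sequence are bound by the splicing factor SF1. Gas5 and the Snhg genes are hosts of small nucleolar RNAs (snoRNAs), which are released from their introns, while the spliced host RNA is exported and degraded by nonsense-mediated decay. Norad is a cytoplasmic RNA that binds the Pumilio proteins through many copies of their recognition element.

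Sequence features of 4 of these RNAs are shown first, from the GENCODE M21 transcripts (build GRCm38), with T for U and written 5′ to 3′. The long Neat1 transcript ends in the A-rich tract AAAAGCAAAA, its last 10 bases (20762 to 20771 of 20771). The tract searched for was taken from this end, so its match in Neat1 was fixed in advance. The same letters were found 1 time in the longest transcript of Malat1, at bases 6682 to 6691 of 6983, and 0 times in those of the other 8 RNAs. Both genes lie on the minus strand of chromosome 19. The 60 bases that end with the tract are given with the tract in capitals.
Malat1: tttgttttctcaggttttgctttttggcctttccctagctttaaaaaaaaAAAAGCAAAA
Neat1: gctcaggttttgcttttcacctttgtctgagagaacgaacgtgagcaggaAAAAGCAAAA
Of annotated transcripts between 0.8 and 1.25 times as long, 4.81% held these letters at the length of Malat1 and 20.3% at the length of Neat1. The opposite strand held the tract 1 time in each, opposite the T-rich stretch within the 60 bases shown.

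The longest Norad transcript (chromosome 2, minus strand) held the Pumilio element TGTANATA 11 times in 4915 bases, or 2.24 per kilobase, and 0 times on the opposite strand. Of 9754 transcripts of like length, Norad included, 3 held as many (0.0308%). Sox2ot had the next highest density, with 4 matches in 3486 bases or 1.15 per kilobase, against 0.39 per kilobase or fewer in the other 8. After 4 of the 11 Norad elements the letters ggacaa follow within 8 bases, and these 4 are shown with the element in capitals.
Norad, from base 1523: gactgctgTGTATATAgtggacaa
Norad, from base 1829: gtgtatacTGTATATAatggacaa
Norad, from base 2451: gtatatatTGTACATActggacaa
Norad, from base 2754: tactactaTGTATATAggggacaa
The base given is the first of the element, counted from the start of the transcript.

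The longest Miat transcript (chromosome 5, minus strand) held the branch point sequence TACTAAC 6 times in 9163 bases and 0 times on the opposite strand. Of 1784 transcripts of like length, Miat transcripts included, 2 held as many (0.112%). Neat1 held it 1 time and the other 8 RNAs 0 times on the transcript strand. The sites that lie closest together are shown, with the sequence in capitals.
Miat, from base 5589: tgctgtgcTACTAACccggccct
Miat, from base 5603: cccggcccTACTAACtggtttct
Miat, from base 5623: tctcttctTACTAACccagccct

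The libraries held 18150389 and 19310668 counts in the knockout and 12812064 and 16883734 in the wild type. Mettl4 RNA was at 15.6 and 17.6 CPM in the knockout libraries, replicate 1 first, and at 63.8 and 66.6 CPM in the wild type libraries, a log2 fold change of -1.97 (SE 0.17, edgeR quasi-likelihood test, adjusted p = 0.0051). CPM stands throughout for counts relative to library size, scaled by edgeR's TMM factors. The 10 neural stem cell markers, among them Sox2, Nes, Vim, Pax6 and Fabp7, all passed the low-count filter and summed to between 5250 and 6310 CPM per library. Their log2 fold changes were above 0 for 4 and under 0 for 6, with 0 called. Both knockout libraries lay above both wild type libraries for 1 of them and below for 5, beside 12.5% and 14.9% of all genes. The 1 above was Sox9, at 84.2 and 81.3 CPM in the knockout and 63.2 and 57.4 CPM in the wild type. Its log2 fold change was 0.46 (SE 0.14, edgeR unadjusted p = 0.009). Of 15 markers of microglia, endothelium and mesenchyme, 6 passed the filter, and the other 9 had at most 9 counts in any library. Of those 6, the smooth muscle actin gene Acta2 had an unadjusted p under 0.05 by edgeR (0.0078), at 2.59 and 1.81 CPM in the knockout and 6.64 and 3.66 CPM in the wild type (log2 fold change -1.21, SE 0.37, adjusted p = 1). The neuron markers summed to 1190 and 1430 CPM in the knockout and 1080 and 1370 CPM in the wild type. Nearly all of that sum was Map2, at 1110 and 1330 CPM against 1000 and 1270 CPM. Gap43 was at 52.1 and 67.2 CPM against 61.1 and 72.8 CPM. Tubb3, Dcx, Rbfox3, Snap25 and Syt1 each lay at 11.8 CPM or less in every library, and Neurod2 had 0 counts in all 4. The astrocyte markers summed to 499 and 391 CPM in the knockout and 341 and 434 CPM in the wild type, with 2 of 6 above 0 in log2 fold change, 4 under 0 and 0 called. Among them Aldh1l1 was at 247 and 198 CPM against 110 and 158 CPM (unadjusted p = 0.0037, edgeR), and Gfap at 3.54 and 1.26 CPM against 3.85 and 4.88 CPM. The oligodendrocyte lineage markers summed to 1460 and 1410 CPM against 1420 and 1290 CPM. Most of that sum was Olig1 (log2 fold change 0.01, SE 0.19) and Olig2 (0.16, SE 0.17). A positive log2 fold change was seen for 8 of 8, with 0 called, beside 9896 of all 19912 genes tested. An unadjusted p under 0.05 was reached by 2, by edgeR, DESeq2 and limma-voom alike, beside 551 of 19912 genes by edgeR. By edgeR the 2 markers were Sox10 and Gpr17, both at low levels. Sox10 was at 3.22 and 2.52 CPM against 0.528 and 1.34 CPM (log2 fold change 1.57, SE 0.45). Gpr17 was at 9.34 and 8.26 CPM against 2.57 and 5.85 CPM (log2 fold change 1.04, SE 0.35). The part of the cell type markers in the values below was not tested. Wild type replicate 1 stood apart in sex-linked RNA: the Y-linked Ddx3y had 626 counts there and 0 in the other 3 libraries. Xist, the long noncoding RNA that coats the inactive X chromosome, had 65857 and 63739 counts in the knockout libraries. It had 3784 and 54699 counts in the wild type libraries, so the groups differed in sex-linked RNA as well as in genotype. The wild type libraries also differed from each other in this, so they did not come from the same single embryo. Without wild type replicate 1, the 10 RNAs had 4 positive and 6 negative log2 fold changes. The largest in size was that of Neat1, at 0.64 (SE 0.31), beside 0.13 (SE 0.30) with all 4 libraries. That fit leaves 1 wild type library.

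Levels of the 10 RNAs spanned about 3 orders of magnitude per length of exon. Malat1 had 963 and 696 CPM per exon kilobase in the knockout and 1120 and 1140 in the wild type, which placed its mean of 980 at rank 51 among the tested genes with an annotated length. Norad followed with 58.9 and 51.6 CPM per kilobase in the knockout and 59.4 and 53.2 in the wild type. Gas5, at a mean of 33.1, and Snhg1, at 32.3, came next with overlapping ranges over the 4 libraries. Snhg3 (11.9), Snhg12 (10.9) and Pantr1 (8.72) formed a lower tier in which each overlapped its neighbour. Sox2ot lay at 3.50, and Miat (1.33) and Neat1 (0.884), whose ranges overlapped, were lowest.

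**Figure D1:**
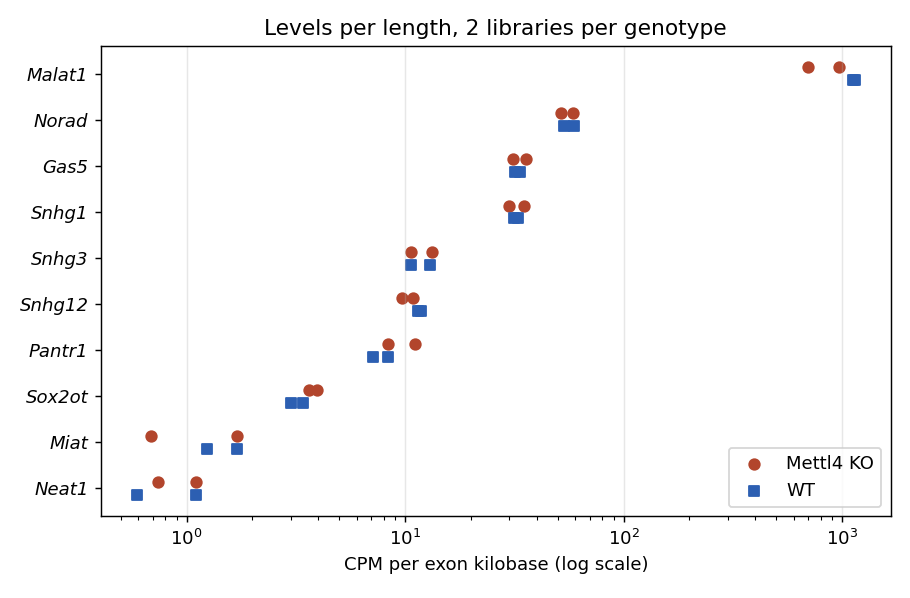
CPM per exon kilobase (log axis) of the 10 long noncoding RNAs in each library, with 2 Mettl4 KO libraries (circles) above 2 WT libraries (squares) for each RNA. Malat1 lies far to the right of all others, and Miat and Neat1 lie lowest near 1 CPM per kilobase.

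The order below Malat1 depended on the length used. The exon length joins all annotated transcripts, including those of Gas5 and the Snhg genes that keep introns, and it counts the full 20.77 kilobases of Neat1 although a short form exists. With the longest single transcript, Norad was at 55.7 and Gas5 at 48.5 CPM per kilobase. With the median transcript length, Gas5 (197) and Snhg1 (159) stood above Norad (104), and Neat1 was lowest at 9.12. Malat1 was highest with each of these lengths.

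None of the 10 RNAs was called between the genotypes, so 0 of 10 were higher and 0 of 10 lower in the knockout at an adjusted p under 0.05 (edgeR quasi-likelihood test, Benjamini-Hochberg over all genes). The test called 0.00502% of all genes, which is Mettl4 alone. At an unadjusted p under 0.05 there were 0 of the 10 RNAs and 551 of 19912 genes. DESeq2 and limma-voom called 0 of the 10 too, with 1 (Malat1) and 0 at an unadjusted p under 0.05. The log2 fold change was above 0 for 6 of the 10 RNAs and under 0 for 4, with a median of 0.017, beside 9896 positive, 10016 negative and a median of -0.001 over all genes tested. In bulk RNA, fewer cells of a type and less RNA per cell cannot be told apart. The groups did not overlap for 3 of the 10, Sox2ot above and Malat1 and Snhg12 below the wild type, and this held for 27.4% of all genes (12.5% above and 14.9% below). The members' share is thus near that of genes in general.

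**Figure D2:**
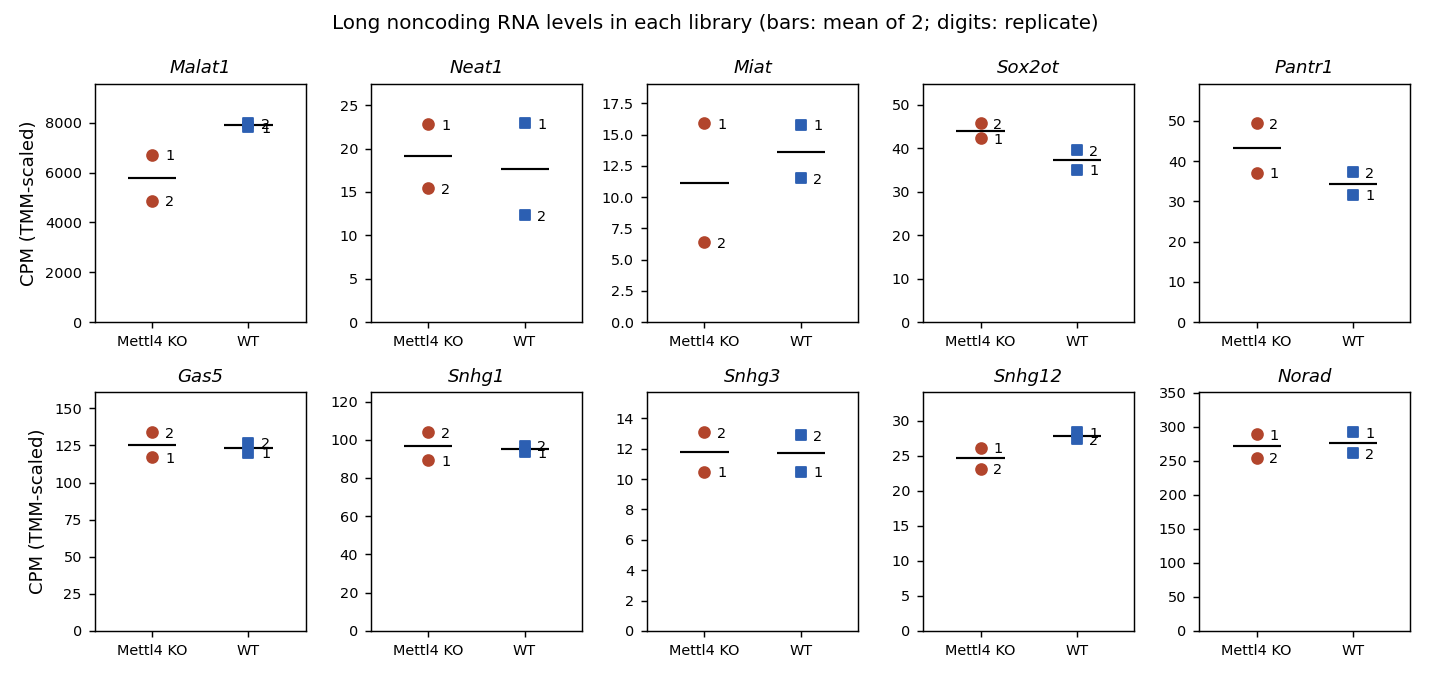
TMM-scaled CPM (linear axes from 0, a scale for each RNA) in 2 Mettl4 KO libraries (circles, left) and 2 WT libraries (squares, right), with replicate numbers beside the points and bars at the mean of 2. Both KO points lie under both WT points for Malat1 and Snhg12 and above them for Sox2ot, and the groups overlap for the other 7.

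Malat1, the speckle RNA, was the most abundant of the 10 and made up 0.702% and 0.46% of all counts in the knockout libraries, against 0.808% and 0.774% in the wild type libraries. The exact 95% binomial interval of the lowest share was 0.457% to 0.463%, and it covers counting error only. Scaled, it was at 6720 and 4860 CPM in the knockout and 7810 and 7970 CPM in the wild type. Both knockout libraries were lower than both wild type libraries, knockout replicate 2 the furthest, while the wild type libraries lay close together. The means were 5790 ± 1320 CPM in the knockout and 7890 ± 109 CPM in the wild type (SD, n = 2 each). The log2 fold change of -0.45 (SE 0.29) had a 95% interval from -1.09 to 0.19, or from 0.47 to 1.14 times the wild type level (edgeR adjusted p = 1). Without knockout replicate 2 the log2 fold change was -0.23 (SE 0.27), and without knockout replicate 1 it was -0.70 (SE 0.27, adjusted p = 0.29).

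A transcript annotated on the strand opposite to Malat1, Gm37376, shares 453 exon bases with it, and it is named here for that overlap. Its own exon length is 0.45 kilobases, so the overlap covers essentially all of it. Gm37376 had 53.6 and 43.6 CPM in the knockout and 70.6 and 71.7 CPM in the wild type. Its log2 fold change was -0.55 (SE 0.16, interval -0.90 to -0.20, edgeR unadjusted p = 0.0054, adjusted p = 1). The ratio of Malat1 to Gm37376 counts was 125 and 111 in the knockout and 111 and 111 in the wild type. The sources used here do not state the strand setting of the counting, so reads of the 2 genes cannot be told apart in these counts. The tested genes closest to Malat1 in log2 CPM centred over the 4 libraries were Acss2, which makes acetyl-CoA from acetate (Euclidean distance 0.062), and the histone H3 genes Hist2h3c2 (0.075) and Hist2h3c1 (0.082), among 4452 genes with at least 50 CPM. The histone pair are near-identical copies, so their separate counts are uncertain.

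Neat1, the paraspeckle scaffold, was low and variable. It was at 22.8 and 15.4 CPM in the knockout and 22.9 and 12.3 CPM in the wild type. Replicate 1 was higher in each genotype, and the groups overlapped fully. The means of 19.1 ± 5.24 and 17.6 ± 7.46 CPM (SD, n = 2 each) gave a log2 fold change of 0.13 (SE 0.30, interval -0.55 to 0.80). Its sign depended on the libraries used: it was -0.18 without knockout replicate 1 and 0.38 without knockout replicate 2. It was 0.64 without wild type replicate 1 and -0.25 without wild type replicate 2. Its count adds the short and the long form, which cannot be told apart in gene counts. The nearest genes by the same distance were Trp53i11 (0.179), Trim28 (0.187), a corepressor, and Sbf1 (0.197).

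Miat had the widest spread of the 10 between the knockout replicates, with 15.9 and 6.40 CPM in the knockout and 15.8 and 11.5 CPM in the wild type. Knockout replicate 2 was the lowest, while knockout replicate 1 was level with wild type replicate 1. The log2 fold change was -0.29 (SE 0.38, interval -1.15 to 0.57). It was 0.22 without knockout replicate 2 and -1.08 without knockout replicate 1, where the edgeR adjusted p was 0.068. An RNA annotated on the opposite strand, Gm26953, shares 2260 exon bases with Miat but had at most 15 counts in any library.

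Genes for proteins of these nuclear bodies gave no call. Over the 76 tested genes of all lists described here and below, 0 were called and 0 had an unadjusted p under 0.05, by edgeR, by DESeq2 and by limma-voom. Of 9 paraspeckle protein genes, 6 had values above 0 and 3 under 0 (median log2 fold change 0.09), and 0 were called. Tardbp, which encodes the RNA-binding protein TDP-43, was at 413 and 532 CPM in the knockout and 399 and 406 CPM in the wild type (log2 fold change 0.23, SE 0.18). For Nono, which codes for a core paraspeckle protein, the log2 fold change was 0.22 (SE 0.20), and for Dazap1 it was 0.16 (SE 0.14). Of 10 nuclear speckle genes, 9 lay above 0 and 1 under 0 (median 0.06), and 0 were called. Among them the spliceosome-associated Rbm25 was at 0.20 (SE 0.15), Pnn at 0.21 (SE 0.16) and Acin1 at 0.15 (SE 0.14), and the 1 negative gene was Son, a speckle scaffold, at -0.07 (SE 0.17).

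Sox2ot and Pantr1 are transcribed next to neural transcription factor genes, and both had higher means in the knockout without passing the test. Sox2ot, whose gene contains that of the stem cell factor Sox2, was at 42.3 and 45.7 CPM in the knockout and 35.0 and 39.5 CPM in the wild type. Both knockout libraries were above both wild type libraries. The means were 44.0 ± 2.39 and 37.2 ± 3.13 CPM (SD, n = 2 each), with a log2 fold change of 0.24 (SE 0.16, interval -0.12 to 0.60). Pantr1 was at 37.1 and 49.4 CPM in the knockout and 31.7 and 37.2 CPM in the wild type. Knockout replicate 2 was the highest, and knockout replicate 1 lay just under wild type replicate 2. Its log2 fold change of 0.33 (SE 0.19, interval -0.09 to 0.75) was the highest estimate of the 10, and it was 0.11 without knockout replicate 2 and 0.52 without knockout replicate 1 (edgeR adjusted p = 0.37).

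The genes beside these RNAs also had estimates above 0. Sox2 was at 196 and 213 CPM in the knockout and 174 and 196 CPM in the wild type, a log2 fold change of 0.14 (SE 0.15). Pou3f3, the neural transcription factor gene next to Pantr1, was at 320 and 289 CPM against 273 and 273 CPM, a log2 fold change of 0.16 (SE 0.16). Neither was called.

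**Figure D3:**
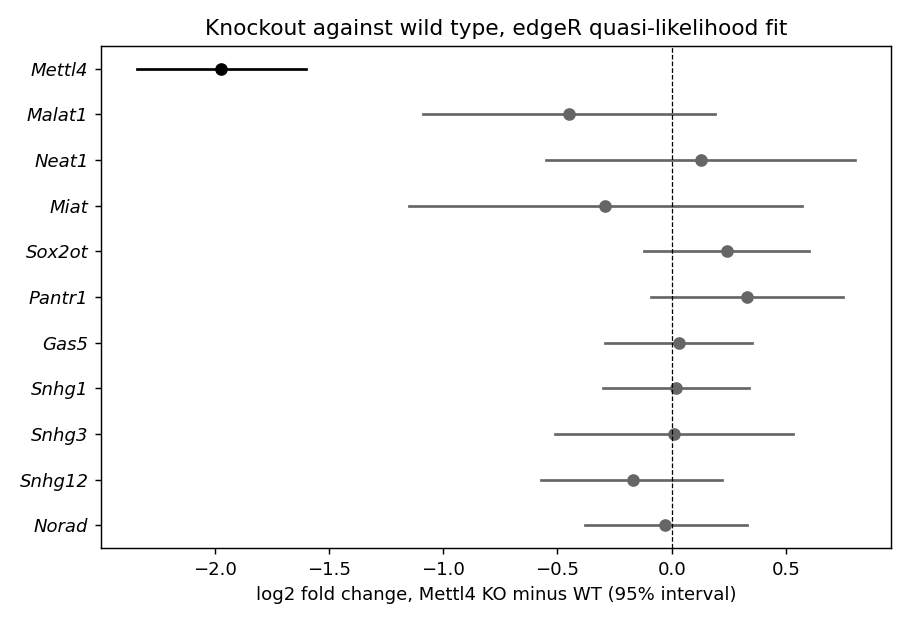
log2 fold change (Mettl4 KO minus WT) with the 95% interval from the edgeR fit for Mettl4 and the 10 long noncoding RNAs. The interval of Mettl4 lies wholly under 0, from -2.34 to -1.60, and those of the 10 RNAs all include 0.

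The snoRNA hosts Gas5, Snhg1 and Snhg3 had nearly level means in the 2 genotypes, and Snhg12 was slightly lower in the knockout. Gas5, which accumulates in growth-arrested cells, was at 117 and 134 CPM in the knockout and 120 and 127 CPM in the wild type. Its log2 fold change of 0.03 (SE 0.14) had an interval from 0.82 to 1.27 times the wild type level. Snhg1 was at 89.2 and 104 CPM against 93.4 and 96.9 CPM, and its log2 fold change of 0.02 (SE 0.14) had an interval from 0.81 to 1.27 times. In both, the wild type values lay between those of the knockout libraries. These were the narrowest intervals of the 10.

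Snhg3 was at 10.5 and 13.1 CPM in the knockout and 10.5 and 12.9 CPM in the wild type, so the libraries split by replicate number rather than by genotype (log2 fold change 0.01, SE 0.23). Exons of another gene on the opposite strand, Gm17300, cover 705 of its 986 exon bases, and 135 bases are shared with Rcc1 on its own strand, so its count is uncertain. Snhg12 was at 26.2 and 23.2 CPM in the knockout and 28.4 and 27.4 CPM in the wild type. Both knockout libraries were lower, and the log2 fold change was -0.17 (SE 0.18, interval -0.57 to 0.22).

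Most hosted snoRNAs had few or no counts. Of 25 snoRNA genes annotated inside the 4 hosts, 23 are in the files and 3 passed the low-count filter, 2 of them in Snhg3. All those in Gas5, Snhg1 and Snhg12, and Snora73a in Snhg3, share bases with host exons on the same strand. Their counts are therefore uncertain and need not reflect snoRNA levels. Snora73a was at 6.02 and 16.9 CPM in the knockout and 8.76 and 14.9 CPM in the wild type (log2 fold change -0.06, SE 0.46). Snora73b was at 7.12 and 16.6 CPM against 5.66 and 8.78 CPM (log2 fold change 0.71, SE 0.39, edgeR adjusted p = 1). Each was higher in replicate 2 of both genotypes, and the spread between replicates was up to 2.81-fold for Snora73a. Snord22, in Snhg1, had at most 21 counts in a library.

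Proteins that act on these RNAs showed no call either. Of 14 nonsense-mediated decay genes, 7 lay above 0 and 7 under 0 (median log2 fold change 0), and 0 were called. Magoh, of the exon junction complex, was at 0.25 (SE 0.21), Upf2, a core decay factor, at 0.18 (SE 0.18) and Rbm8a, the partner of Magoh, at -0.15 (SE 0.18). Of 8 genes for snoRNA-bound proteins, 7 lay above 0 and 1 under 0 (median 0.10), and 0 were called. Nop10 (0.25, SE 0.21), Nhp2 (0.23, SE 0.20) and Nop58 (0.13, SE 0.15) had the smallest p in log2 fold change.

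Other noncoding snoRNA hosts split evenly. Of 15 listed, 11 were tested, 5 above 0 and 6 under 0 (median log2 fold change -0.07), and 0 were called. Snhg8 averaged 35 ± 7.14 CPM in the knockout and 26.2 ± 2.98 CPM in the wild type (SD, n = 2 each), with both knockout libraries above both wild type libraries (log2 fold change 0.42, SE 0.20, edgeR adjusted p = 1). Snhg17 was at -0.29 (SE 0.21) and Zfas1 at -0.18 (SE 0.16).

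Norad, the Pumilio-binding RNA, was at 289 and 254 CPM in the knockout and 292 and 261 CPM in the wild type. The groups overlapped, and replicate 1 was higher in each. The means of 272 ± 25.2 and 277 ± 21.8 CPM (SD, n = 2 each) gave a log2 fold change of -0.03 (SE 0.16), an interval from 0.77 to 1.26 times the wild type level. Among its partners the log2 fold change was 0.11 (SE 0.17) for Pum2 and 0.12 (SE 0.17) for Rbmx, which also binds Norad, and neither was called.

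Of 25 other long noncoding RNAs listed for comparison, 19 were tested, 10 above 0 and 9 under 0 (median log2 fold change 0.04), and 0 were called. Jpx, an X-linked RNA that acts on Xist, was at 41.7 and 28.8 CPM in the knockout and 20.5 and 29.6 CPM in the wild type (log2 fold change 0.49, SE 0.24). Its lowest value was in wild type replicate 1, the library with Y-linked counts. Dleu2 was at 169 and 180 CPM against 132 and 156 CPM (log2 fold change 0.28, SE 0.15), and Crnde at 3.69 and 4.32 CPM against 6.72 and 4.51 CPM (log2 fold change -0.48, SE 0.30). The imprinted Meg3, an abundant RNA of mature neurons, had at most 3 counts in any library, and Mirg and Dlx6os1, an RNA of interneuron precursors, had 0 in all 4.

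The spread between replicates differed widely among the 10 RNAs. Between the knockout libraries the ratio of the higher to the lower CPM ran from 1.08 for Sox2ot to 2.48 for Miat, and between the wild type libraries from 1.02 for Malat1 to 1.86 for Neat1. On the log2 scale the median absolute difference was 0.27 between knockout and 0.17 between wild type replicates, beside 0.21 and 0.18 over the 10237 tested genes with at least 10 CPM. For Malat1 the knockout libraries differed by 0.47 on the log2 scale, where counting error alone gives an SD of 0.006. For Snhg3 the difference of 0.32 stood beside a counting SD of 0.138. The gene-wise biological coefficient of variation in the fit was 12.1% for Snhg1 and 12.2% for Gas5, against 21.5% for Neat1 and 26.5% for Miat, where the trend over genes of like level gave 13.0%, 13.2%, 16.2% and 17.3%.

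**Figure D4:**
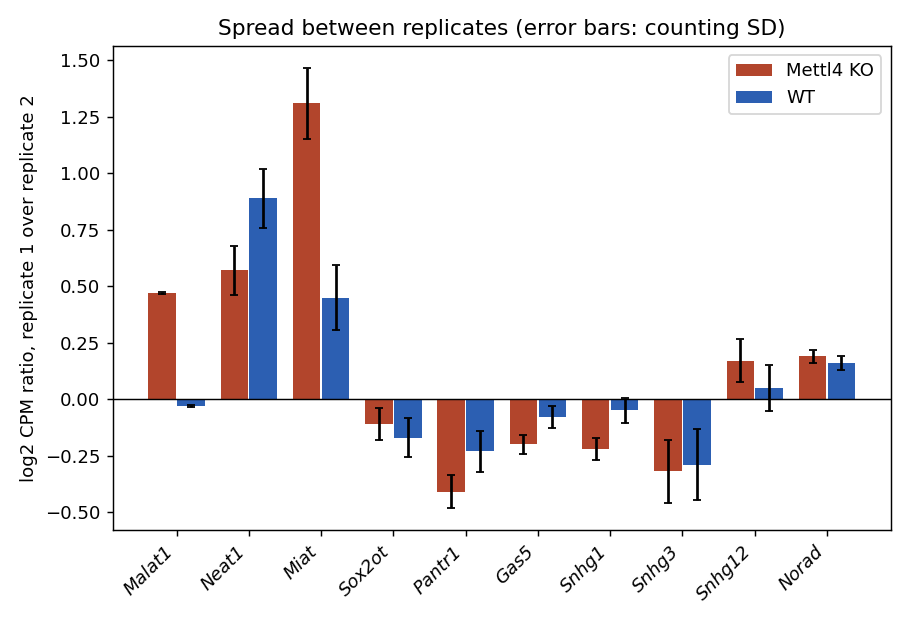
log2 CPM ratio of replicate 1 over replicate 2 for each RNA, with Mettl4 KO bars left of WT bars and error bars showing the SD from read counting alone. Miat in the KO (1.31) and Neat1 in the WT (0.89) have the tallest bars, and Malat1 has a ratio of 0.47 in the KO and -0.03 in the WT.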

How the data were processed

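The authors deposited 1 table per library with a raw, whole-number read count for each Ensembl gene. The submitters' processing notes name STAR 2.7.10, featureCounts and the build GRCm39. The sources used here do not state the settings for strand and multiply mapped reads, or whether RNA was poly(A)-selected. Symbols and exon lengths came from GENCODE M21 (GRCm38), which matched 52081 of 55414 identifiers without version. Norad was matched through its RefSeq synonym. No gene coordinates are given.

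Genes were filtered with filterByExpr (minimum count 10), scaled by TMM and fitted in edgeR 4.0.16 under R 4.3.3, with a robust quasi-likelihood F test of genotype. P-values were Benjamini-Hochberg adjusted over all genes, with calls under 0.05. Standard errors were obtained by dividing each log2 fold change by the square root of its F. The test was also run on simulated counts. Their spread followed the trend over genes of like level, which is narrower than the spread of Neat1 or Miat. DESeq2 1.42.0 and limma-voom 3.58.1 were alternatives. Named genes are Mettl4, the 10 RNAs, Sox2 and Pou3f3, up to 3 genes with the smallest p from each list outside the cell type markers, nearest genes to Malat1 and Neat1, and overlapping or individually described genes picked after their values were seen. A gene that the rule takes is not reported here. The members and lists were chosen with earlier results of these data known. Replicates were no repeats of 1 library, since the chi-square per degree of freedom was 29.5 between knockout and 18.7 between wild type libraries.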

Additional observations from a re-analysis of the deposited data

How the results depend on the processing

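None of the 10 RNAs was called under any of the 15 alternatives. The number of genes called overall was 41 with no low-count filter, 6 with DESeq2 and from 1 to 189 when a library was left out: 189 without knockout replicate 1, 1 without knockout replicate 2, 46 without wild type replicate 1 and 26 without wild type replicate 2. In those fits a group with 1 library is assumed to vary as the other group does. Each alternative called Mettl4. Among the settings that kept all 4 libraries, the 10 log2 fold changes kept their signs. When 1 library was left out, Neat1 ran from -0.25 to 0.64, Miat from -1.08 to 0.22, Gas5 from -0.07 to 0.13, Snhg1 from -0.09 to 0.13, Snhg3 from -0.15 to 0.19 and Norad from -0.12 to 0.07, each crossing 0, while Malat1, Sox2ot, Pantr1 and Snhg12 kept their direction. The cause was not tested.

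With the replicate number as a block 9 genes were called, with 1560 at an unadjusted p under 0.05. Of the 10 RNAs 3 had an unadjusted p under 0.05 there, Malat1 (0.015), Pantr1 (0.016) and Sox2ot (0.048), and the smallest adjusted p was 0.51. Without knockout replicate 1, 3 of the 10 did too, Miat, Malat1 and Pantr1, beside 1847 of all genes. No label says that equal numbers share a culture. Deviations of same-numbered libraries from their group means had a correlation of 0.23 across genes. With 2 libraries a group, the median standard error of the 10 RNAs was 0.18 on the log2 scale.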

Other observations

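The sign of the replicate ratio was the same in both genotypes for 9 of the 10 RNAs (90%), Malat1 being the exception, beside 71.5% of the tested genes with at least 10 CPM. Neat1, Miat, Snhg12 and Norad were higher in replicate 1 of each genotype, and Sox2ot, Pantr1, Gas5, Snhg1 and Snhg3 in replicate 2. The share of counts on mitochondrially encoded genes was also higher in replicate 2, at 1.46% and 2.12% in knockout replicates 1 and 2 and at 1.26% and 1.91% in wild type replicates 1 and 2. Its part in these values was not tested.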
